A study of Mus musculus with 8 samples.

Results

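The 9 genes described here encode the middle section of cholesterol synthesis, from squalene to the sterol that has lost its methyl groups at carbons C14 and C4: Fdft1, Sqle, Lss, Cyp51, Tm7sf2, Msmo1, Nsdhl, Hsd17b7 and Erg28. They were chosen by name, as every non-control array probe whose gene name in the scanner files is one of these symbols or an older name for it (Sc4mol for Msmo1, 0610007P14Rik for Erg28). All 9 were found among the 24029 named genes of the array, on 14 probes. The RNA came from liver of bl6 mice aged 12 weeks and fed chow, collected on day 6 after transduction with 2e+09 (no unit given) of an adenoviral construct. The control group received pblockITcontrol and the shRaly group pblockITshRaly, which carries a short hairpin RNA against Raly, so all the mice received a virus. The labels do not give the hairpin sequence, what the control construct expresses, or which liver cells took up the virus. Each group has 4 arrays with 1 dye (Agilent, Cy3). Whether the arrays of a group come from separate mice is not stated. The p-values therefore cover only the variation among these 8 samples, part of which may be technical. The comparison asks how transcripts of the sterol pathway stand when Raly, which encodes an hnRNP-type protein that binds RNA, is knocked down.

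Cholesterol is built in the endoplasmic reticulum of liver cells from acetyl units by way of mevalonate and farnesyl diphosphate. Squalene synthase commits farnesyl diphosphate to sterols, squalene is oxidised and folded into lanosterol, and lanosterol then loses methyl groups before its double bonds are moved and reduced. Many of these genes are switched on together by the transcription factor SREBP2 when sterols in the membrane are low, and their promoters commonly bind NF-Y and Sp1 beside SREBP2.

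Probe identity matters here because 4 of the 9 genes had several probes, and a probe from 1 stretch of a transcript need not speak for another. Below is 1 probe for each of these 4 genes, each 60 bases in the sense of the transcript, 5′ to 3′, and each with at least 1 reading frame free of stop codons. The Fdft1 probe A_55_P2033250 is divided over a stretch of the minus strand at chr14:63765750-63769990 (mm9), 4241 bases long, and thus spans an intron. The Tm7sf2 probe A_55_P2171406 lies at chr19:6063541-6063600 on the minus strand, the Nsdhl probe A_66_P137462 at chrX:70202803-70202862 on the plus strand and the Hsd17b7 probe A_55_P1997936 at chr1:171883182-171883241 on the minus strand. Exon and UTR annotation on this build was not used here.
Fdft1: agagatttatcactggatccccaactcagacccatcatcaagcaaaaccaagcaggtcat
Tm7sf2: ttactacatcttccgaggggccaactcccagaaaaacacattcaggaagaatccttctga
Nsdhl: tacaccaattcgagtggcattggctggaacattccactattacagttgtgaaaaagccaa
Hsd17b7: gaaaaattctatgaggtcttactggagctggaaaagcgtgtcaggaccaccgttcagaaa

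Raly itself stood at 51.8%, 80.9%, 58.3% and 62.7% of the control mean on shRaly arrays 1 to 4, and at 100.4%, 84.3%, 105% and 112% on control arrays 1 to 4. The groups did not overlap, but shRaly 2 was close to control 2, and the log2 fold change of -0.68 (SE 0.15) had a limma adjusted p of 0.0749. Between 45.9% (shRaly 2) and 51.1% of spots were well above background per array. All arrays lay on 1 slide, with the control arrays in the first row and the shRaly arrays in the second, so a difference between rows cannot be told apart from one between groups. Here and below a level is given as a percentage of the geometric mean of the 4 control arrays for the same probe, after each array was scaled to its 75th percentile. A gene is said to have fallen where the adjusted p (limma, adjusted over all 14874 genes tested) was under 0.05.

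All 9 genes were tested, each was well above background on 8 of 8 arrays, and all 9 had lower means in shRaly livers. Sqle, Cyp51, Msmo1, Hsd17b7 and Erg28 fell, 0 rose, and Fdft1, Lss, Tm7sf2 and Nsdhl did not pass the threshold. Of all genes tested, 0.914% fell and 0.309% rose, together 1.22%. All 9 had an unadjusted p under 0.05, which 9.71% of all genes had with a lower shRaly mean. In 8 of the 9 genes every shRaly array lay below every control array, a pattern found in 6.45% of all genes tested; the opposite pattern was found in 3.93%, and either in 10.4%. The median log2 fold change of the 9 was -0.77, or 58.7% of the control level, beside -0.02 over all genes tested. The single genes ran from -1.31 (Msmo1) to -0.35 (Tm7sf2). In whole liver, fewer cells of a type and less RNA per cell cannot be told apart.

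**Figure D1:**
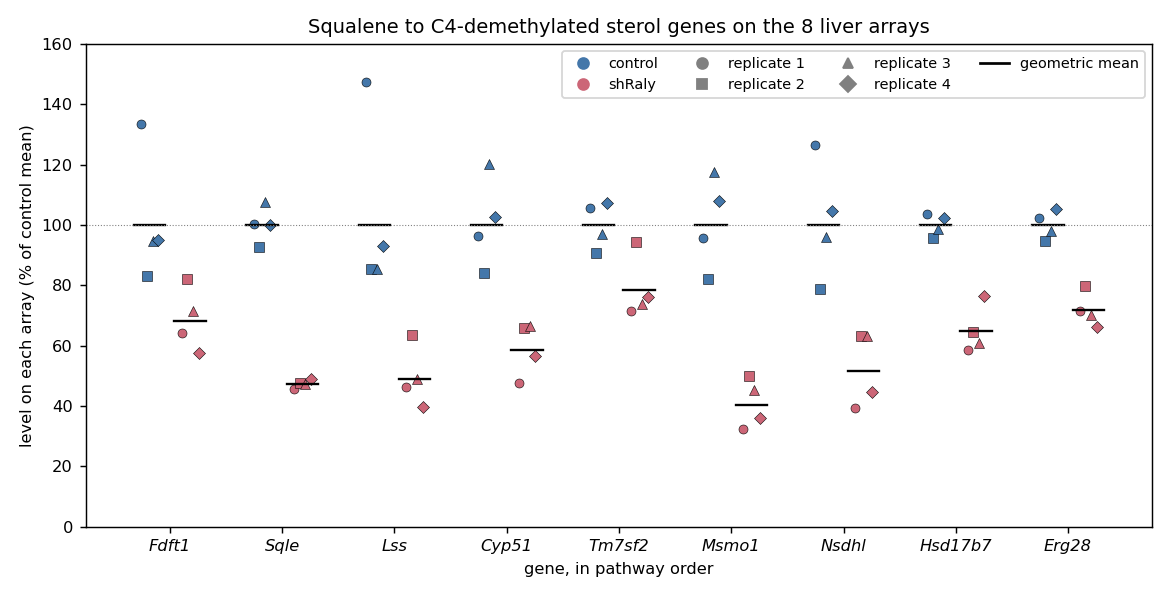
Level of each of the 9 genes on each array, in percent of the control geometric mean (vertical axis, from 0), for 4 control (blue) and 4 shRaly (red) arrays, with marker shapes for replicate numbers and black bars for geometric means. The red points lie below the blue ones for every gene except Tm7sf2, where shRaly 2 (94.3%) is above the lowest control (90.9%), and the 4 shRaly points of Sqle lie between 45.7% and 48.8%.

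Squalene synthesis and oxidation differed in how evenly the arrays behaved. Fdft1, squalene synthase, stood at 133%, 83.2%, 94.8% and 95.1% on control arrays 1 to 4 and at 64.1%, 82.1%, 71.6% and 57.5% on shRaly arrays 1 to 4. The groups were separated by 0.019 on the log2 scale, since shRaly 2 nearly reached control 2. The log2 fold change was -0.55 (SE 0.17, 95% interval -0.93 to -0.18, limma adjusted p = 0.156). Sqle, squalene epoxidase, a flux-controlling oxygenase of the pathway, gave control values of 100.5%, 92.6%, 107% and 99.98% and shRaly values of 45.7%, 47.7%, 47.3% and 48.8%. The 4 shRaly arrays were nearly equal (SD 0.040 on the log2 scale, the smallest of the 9 genes in that group), and the gap to the lowest control was 0.92. Sqle fell to 47.4% of control (95% interval 41.7% to 53.8%, limma adjusted p = 0.00178), and its p ranked 3 among the 14874 genes tested.

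Lss, lanosterol synthase, which folds oxidised squalene into the first sterol, had a mean as low as that of Sqle but more spread. Its control values were 147%, 85.5%, 85.3% and 92.9%, so control 1 stood far above the other controls, and its shRaly values were 46.5%, 63.5%, 49.1% and 39.7%. The groups did not overlap. The log2 fold change was -1.03 (SE 0.21), or 49.0% of control (95% interval 35.4% to 67.7%), with a limma adjusted p of 0.0543, just outside the threshold. Without control 1 its log2 fold change was -0.84, and without shRaly 2 it was -1.16 and passed (adjusted p = 0.0386).

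Removal of the C14 methyl group involves a cytochrome P450, Cyp51, and then a reductase of the double bond that is left, a step shared by Tm7sf2 and Lbr. Cyp51 gave 96.2%, 84.0%, 120% and 103% on the control arrays and 47.7%, 65.9%, 66.7% and 56.6% on the shRaly arrays. The groups did not overlap, and Cyp51 fell by 0.77 on the log2 scale (SE 0.15), to 58.7% of control, with a limma adjusted p of 0.0475, near the threshold. Tm7sf2 gave 106%, 90.9%, 97.2% and 107% in the controls and 71.5%, 94.3%, 74.0% and 76.0% in the shRaly group. It was the 1 gene whose groups overlapped, through shRaly 2, and its log2 fold change of -0.35 (SE 0.11, 95% interval -0.60 to -0.10, limma adjusted p = 0.177) was the smallest of the 9. Lbr, the other C14 reductase, which is also a nuclear envelope protein, had a log2 fold change of the opposite sign, 0.37 (SE 0.10, limma adjusted p = 0.127). Its values were 104%, 96.6%, 95.9% and 104% in the controls and 111%, 128%, 144% and 136% in the shRaly group, with no overlap.

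The C4 methyl groups are removed by an oxidase (Msmo1), a decarboxylating dehydrogenase (Nsdhl) and a ketone reductase (Hsd17b7). Erg28, known from the yeast Saccharomyces cerevisiae, tethers these enzymes into a complex in the endoplasmic reticulum. Msmo1 fell furthest of the 9. Its control values were 95.7%, 82.2%, 118% and 108% and its shRaly values 32.4%, 50.1%, 45.4% and 36.0%, and the highest shRaly array was 0.71 log2 units below the lowest control. It fell to 40.4% of control (95% interval 31.1% to 52.5%, limma adjusted p = 0.0172), the log2 fold change ranking 58 from the lowest among all genes tested. Nsdhl had control values of 127%, 78.7%, 96.0% and 105% and shRaly values of 39.3%, 63.3%, 63.2% and 44.8%. Its groups did not overlap, and its log2 fold change of -0.96 (SE 0.20, 95% interval -1.41 to -0.51) had a limma adjusted p of 0.0599.

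Hsd17b7 and Erg28 had tight controls and smaller differences. Hsd17b7 gave 104%, 95.5%, 98.7% and 102% in the controls, the narrowest control range of the 9 (SD 0.053 on the log2 scale), and 58.5%, 64.6%, 61.0% and 76.4% in the shRaly group. It fell by 0.63 on the log2 scale (SE 0.10), to 64.8% of control, with a limma adjusted p of 0.0321. Erg28 gave 102%, 94.7%, 98.2% and 105% in the controls and 71.5%, 79.9%, 70.3% and 66.1% in the shRaly group. It fell by 0.48 (SE 0.09), to 71.8% of control, with a limma adjusted p of 0.0447. Neither gene had overlapping groups.

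Promoter sequence was available for 7 of the 9 genes in the RefSeq table of build GRCm38.p6; Fdft1 and Sqle had no entry. The 300 base windows, from 250 before to 50 after the annotated start, were searched on both strands for 4 motifs, and no site of 1 motif overlapped a site of another. CCAAT, the core that NF-Y binds, was found in 6 of the 7 windows (all but Erg28), against 37.4% of the 32851 windows of all genes in the table. GGGCGG, an Sp1 core, was found in 7 of 7 against 35.7%, in windows with a GC content of 59.3% to 71.0% (median of all windows 52.7%). CACGTG, an E-box, was found in Hsd17b7 alone (1 of 7, against 7.15%). TCACNCCAC, one form of the sterol regulatory element, was found in 0 of 7, against 1.24%. A match is a description of letters in this window, and its absence says nothing of binding.

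The upstream 250 bases of the 4 genes of C4 demethylation are shown, since their products act in 1 complex and they include Msmo1, with the lowest log2 fold change of the 9; capitals mark CCAAT or its reverse complement ATTGG. They are written 5′ to 3′ on the strand of the gene: Msmo1 at chr8:64733579-64733828 (minus), Nsdhl at chrX:72918271-72918520 (plus), Hsd17b7 at chr1:169969206-169969455 (minus) and Erg28 at chr12:85824894-85825143 (minus).
Msmo1: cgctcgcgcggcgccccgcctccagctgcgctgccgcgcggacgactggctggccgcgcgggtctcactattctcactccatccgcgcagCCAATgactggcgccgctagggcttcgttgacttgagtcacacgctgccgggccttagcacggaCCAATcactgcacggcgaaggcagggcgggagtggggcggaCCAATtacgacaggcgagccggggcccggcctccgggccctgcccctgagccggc
Nsdhl: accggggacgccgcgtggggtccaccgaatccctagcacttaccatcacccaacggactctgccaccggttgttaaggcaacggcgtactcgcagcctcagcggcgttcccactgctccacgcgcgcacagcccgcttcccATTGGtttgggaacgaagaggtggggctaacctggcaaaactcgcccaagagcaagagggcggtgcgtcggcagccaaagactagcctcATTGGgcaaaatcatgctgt
Hsd17b7: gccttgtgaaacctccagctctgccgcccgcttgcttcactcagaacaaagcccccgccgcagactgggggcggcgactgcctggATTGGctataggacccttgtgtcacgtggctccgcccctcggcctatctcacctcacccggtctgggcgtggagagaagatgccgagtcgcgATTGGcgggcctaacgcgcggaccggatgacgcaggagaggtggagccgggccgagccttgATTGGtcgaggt
Erg28: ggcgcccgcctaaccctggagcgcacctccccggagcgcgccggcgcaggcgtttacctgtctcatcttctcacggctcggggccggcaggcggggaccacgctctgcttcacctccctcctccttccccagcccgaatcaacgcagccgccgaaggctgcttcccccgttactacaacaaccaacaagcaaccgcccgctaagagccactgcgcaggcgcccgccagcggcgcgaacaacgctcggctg
Msmo1 has 3 CCAAT sites, first bases at -160, -96 and -55 from the start, all in the orientation of the gene. Hsd17b7 has 3 in the reverse orientation, at -165, -73 and -12. Nsdhl has those at -109 and -20 shown above and others at 9 and 35 downstream of the start. Erg28 has none in this window. Whether the sites bear on the fold changes was not tested.

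Second probes gave the same direction where they measured the transcript. Of the 14 probes, 13 passed the filter on dim probes, and in 12 of these every shRaly array lay below every control array. The 13 probes include those that represent the genes above, so this count is not separate from the count by gene. The share of all probes with this pattern was not counted, and among all genes tested it was 6.45%. In a fit over all 19861 probes past the filter, where 0.972% of probes were called in either direction, 5 of the 13 were called. Those called were probes of Sqle, Msmo1, Hsd17b7 and Nsdhl. The probes of Cyp51 and Erg28, genes that fell in the fit by gene, were not called here (limma adjusted p = 0.0530 and 0.0523). The other Nsdhl probe, A_55_P1976395 (chrX:70203793-70203852), had a log2 fold change of -0.97 (SE 0.16), beside -0.96 for the brighter probe, and was called in that fit (limma adjusted p = 0.0310). Hsd17b7 probe A_55_P1997936, printed above, gave -0.75 (SE 0.10, adjusted p = 0.0222), and the remaining probe, A_55_P1964598 (chr1:171885632-171885691, signals of 25.8 to 60.4), gave -0.46 (SE 0.18, adjusted p = 0.265).

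Tm7sf2, whose groups overlapped on the brighter probe A_52_P35064 (chr19:6062882-6062941, log2 fold change -0.35), had no overlap on the other. The printed probe A_55_P2171406 gave -0.61 (SE 0.15, adjusted p = 0.112) with values of 120%, 87.3%, 92.0% and 104% in the controls and 55.3%, 83.5%, 67.0% and 59.4% in the shRaly group. A further Fdft1 probe, A_52_P136138 (chr14:63764562-63764621), was well above background on 1 control array and on 0 shRaly arrays, with signals of 3.22 to 19.3, and was not tested.

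**Figure D2:**
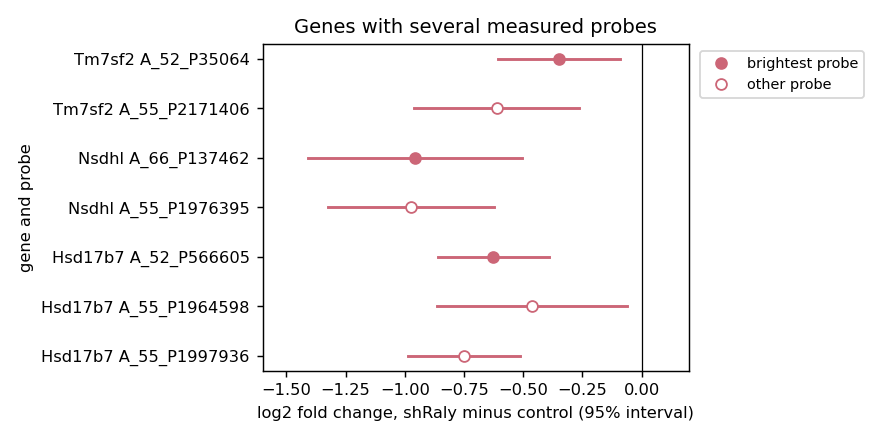
Log2 fold change (shRaly minus control, horizontal axis) with 95% interval for each measured probe of Tm7sf2, Nsdhl and Hsd17b7, filled for the brightest probe of a gene and open for the others. All 7 estimates are below 0, and the Tm7sf2 estimates are -0.35 and -0.61.

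The 9 genes did not order the shRaly arrays alike. Taken over the 9 genes, the median level was 47.7%, 64.6%, 63.2% and 56.6% on shRaly arrays 1 to 4, and 104%, 85.5%, 98.2% and 103% on control arrays 1 to 4. The shRaly 1 array, with the lowest Raly level (51.8%), was the lowest of its group for 6 genes and shRaly 4 for the other 3 (Fdft1, Lss and Erg28). The shRaly 2 array, with the highest Raly level (80.9%), was the highest of its group for 6 genes. The other arrays went the other way: shRaly 3 had less Raly (58.3%) than shRaly 4 (62.7%) but a higher median of the 9 genes. For Sqle the highest of the group was shRaly 4, at 48.8%. Among the controls, control 2 was the lowest for 8 of the 9 genes, and its Raly level (84.3%) was also the lowest. A relation between the Raly level of an array and the levels of the 9 genes was not tested.

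Some pairs moved together within the groups. The difference between Msmo1 and Cyp51 on the same array had an SD of 0.049 among the controls and 0.11 in the shRaly group, while Msmo1 alone had SDs of 0.23 and 0.29 on the log2 scale. Control 3 was the highest control for both, and for Sqle. Fdft1, Lss and Nsdhl had another highest control, control 1, at 127% to 147%; the difference between Fdft1 and Lss had an SD of 0.12 among the controls and 0.079 in the shRaly group. Other pairs were close in 1 group only: the difference between Hsd17b7 and Erg28 had an SD of 0.029 among the controls and 0.24 in the shRaly group. These are descriptions of 4 arrays a group, for pairs given as examples. How often such small SDs arise among all pairs by selection was not tested.

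Whether the genes differed from each other in the size of the change was tested for all 36 pairs, on the difference of the log2 values of the pair on each array. In 14 pairs the groups did not overlap, each with the smallest exact permutation p possible with 4 against 4 arrays (two-sided, 0.0286). After Benjamini-Hochberg adjustment over the 36 pairs 0 passed, and the smallest adjusted p by the exact permutation test was 0.0735. With so few arrays a pair could pass only if most of the 36 pairs were separated too, whatever the size of its difference. The adjusted result therefore does not show that the genes changed alike. The largest difference was between Msmo1 and Tm7sf2, 0.96 log2 units, and Msmo1 also stood 0.83 below Erg28, 0.68 below Hsd17b7 and 0.54 below Cyp51, all without overlap of the groups. Sqle and Lss differed by 0.047 (exact permutation p = 0.800).

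The calls rest on few arrays. With 1 array left out in turn, Sqle passed in 8 of 8 fits (limma adjusted p from 0.00387 to 0.0154) and Msmo1 in 6, not without control 3 (0.0567) or shRaly 4 (0.0585). Hsd17b7 passed in 2, without shRaly 2 (0.0453) or shRaly 4 (0.0446), and Cyp51 and Erg28 in 1, without shRaly 2 (0.0483 and 0.0359). Leaving out shRaly 2 gave 6 of the 9 genes past the threshold and any other array 1 or 2, against 5 with all arrays. The log2 fold changes were negative in all of these fits, from -0.30 (Tm7sf2 without shRaly 1) to -1.41 (Msmo1 without shRaly 2).

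**Figure D3:**
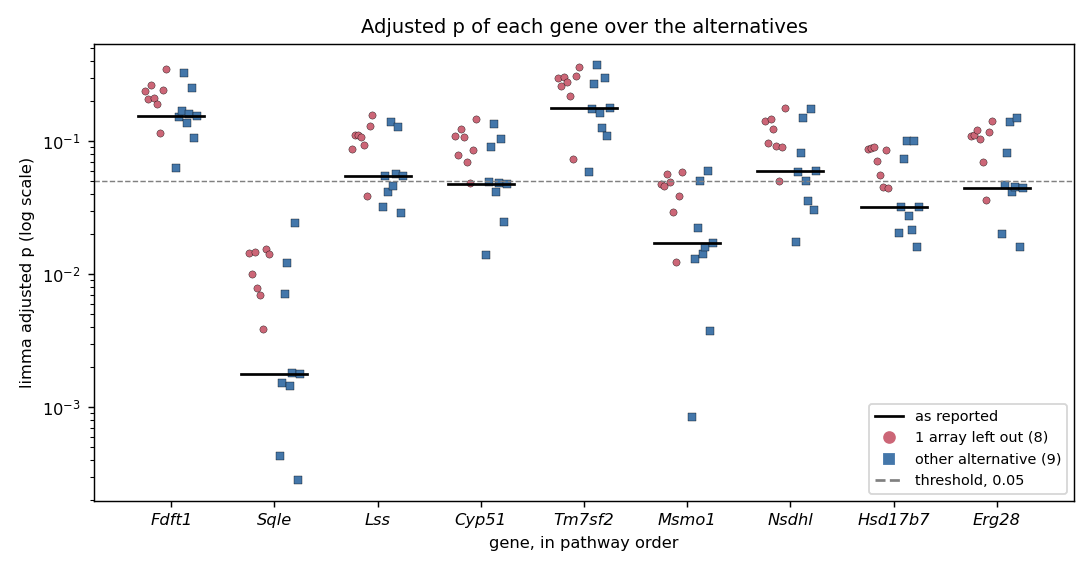
Limma adjusted p (vertical axis, log scale) of each of the 9 genes as reported (black bar), with 1 array left out (red circles, 8 a gene) and under the other processing alternatives (blue squares, 9 a gene), with the threshold of 0.05 dashed. All points of Sqle lie below the line, all points of Fdft1 and Tm7sf2 above it, and the other genes have points on both sides.

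The sections of the pathway on either side gave like counts. Of the 9 mevalonate pathway enzymes 5 fell, 0 rose and 4 did not pass (median log2 fold change -0.83), and of the 5 terminal sterol enzymes 2 fell, 0 rose and 3 did not pass (median -0.56). Mvd, mevalonate diphosphate decarboxylase, fell to 41.6% of control, Idi1, the isopentenyl diphosphate isomerase, to 50.8%, and Fdps, which makes the substrate of Fdft1, to 51.8%. Mvk, mevalonate kinase, fell to 51.2%. Past the last member, Ebp, the sterol isomerase, fell to 23.7% and Dhcr7, a terminal reductase, to 53.5%. The calls of Mvd, Idi1 and Ebp held in each of the 8 fits with 1 array left out. The limma adjusted p of Fdps (0.0228) missed the threshold without any 1 of the control arrays or without shRaly 4 (0.0554 to 0.0747). That of Mvk (0.0439) missed it without any 1 of the controls, shRaly 3 or shRaly 4 (0.0586 to 0.134), and with median scaling (0.0801). That of Dhcr7 (0.0228) missed it without control 2, 3 or 4 or shRaly 3 or 4 (0.0554 to 0.0809). With no filter on dim probes Fdps, Mvk and Dhcr7 did not pass (0.0738, 0.117 and 0.0744). Fdft1, at the branch, thus stood at 68.2% between Fdps at 51.8% and Sqle at 47.4%, and the difference from Fdps was not tested. That from Sqle was 0.53 log2 units, with overlap of the groups, and did not pass (exact permutation p = 0.0571, adjusted p = 0.121).

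Genes listed as redox partners of Sqle, Cyp51 and the C4 demethylation steps were measured as well. Of these 5 genes 0 fell, 0 rose and 5 did not pass (median log2 fold change 0.01). Por, the cytochrome P450 reductase that serves Sqle and Cyp51, had 0.56 (SE 0.25, limma adjusted p = 0.319), with controls from 72.2% to 147% and shRaly arrays from 114% to 185%. Cyb5r3, the cytochrome b5 reductase, had -0.37 (SE 0.13, adjusted p = 0.225), with every shRaly array (72.5% to 79.5%) below every control (84.6% to 131%). These are values of its brightest probe. With the mean of its probes Cyb5r3 had -0.23 (limma adjusted p = 0.655), and without control 1 it had -0.24 (0.292). The cytochromes Cyb5a and Cyb5b had -0.06 and 0.01, and Pgrmc1, a haem-binding partner of Cyp51, had 0.07. The sign of Cyb5b depended on the processing.

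**Figure D4:**
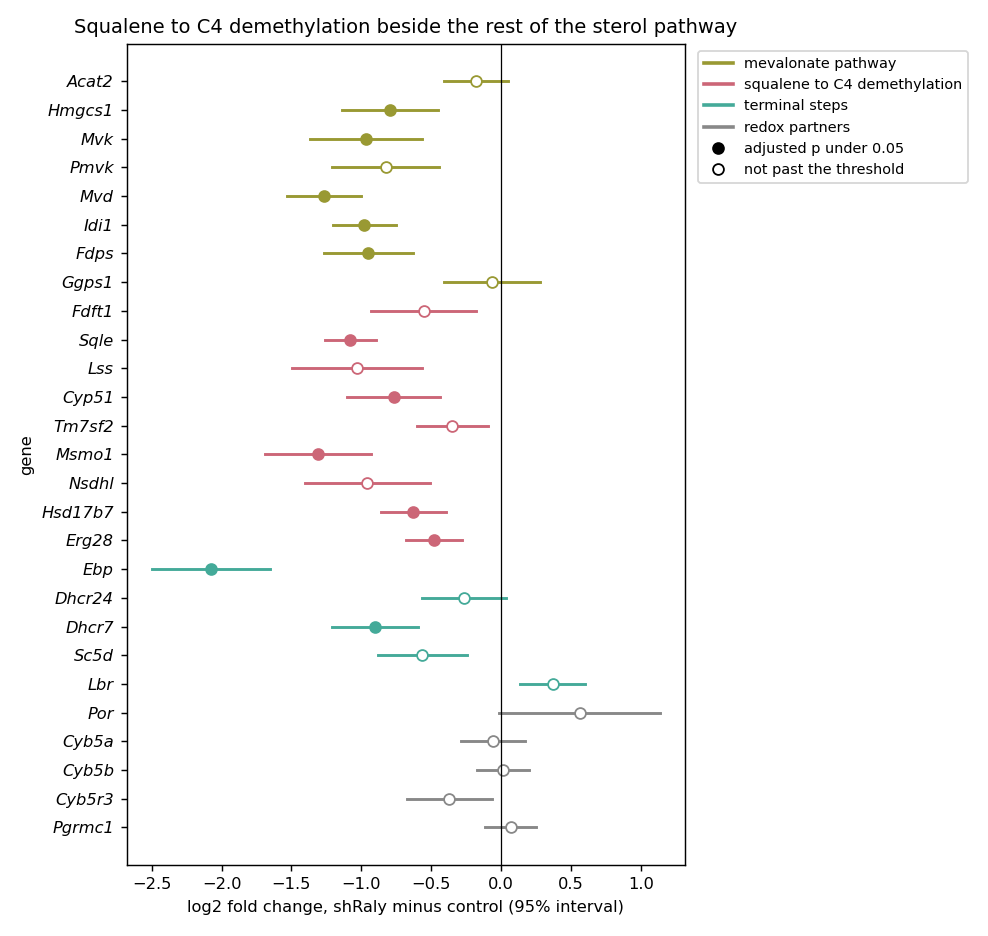
Log2 fold change (shRaly minus control, horizontal axis) with 95% interval for the 9 genes (red), 8 of the 9 mevalonate pathway genes (olive), the terminal steps (teal) and the redox partners (grey), in the order of the lists; filled points have an adjusted p under 0.05. The filled points all lie below 0, and Lbr and Por lie above 0 with open points.

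Of 7 genes for the SREBP factors and their processing, 1 fell, 0 rose and 6 did not pass (median -0.19). Srebf2, which encodes SREBP2, fell to 62.3% of control (log2 -0.68, limma adjusted p = 0.0379), with shRaly arrays from 56.0% to 68.3% and controls from 81.7% to 111%. Srebf2 passed in 1 of the 8 fits with an array left out, that without shRaly 2 (0.0483), and not in the other 7 (0.0526 to 0.124). Nor did it pass with normexp background correction (log2 -0.42, adjusted p = 0.0838), with the mean of its probes (-0.47, 0.0553) or with no filter on dim probes (0.110). The protease genes Mbtps2 and Mbtps1 had -0.25 and -0.19, and Insig1, which retains SREBPs in the endoplasmic reticulum, -0.35, none past the threshold. Of 10 other sterol-regulated genes measured, 0 fell, 0 rose and 10 did not pass (median -0.12). The sterol exporter gene Abcg5 had 0.28 (limma adjusted p = 0.202), without overlap of the groups, and Stard4, a sterol carrier, had -0.47 (0.259).

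Outside these lists, the genes with a pattern most like the median of the 9 over the 8 arrays were sought by the smallest root mean square difference of log2 values relative to the control mean. They were Gm8221 (0.10), Pid1 (0.11), Tbccd1 (0.11), Smdt1 (0.11) and Msl3 (0.12), in log2 units over 8 arrays. Smdt1, a subunit of the mitochondrial calcium uniporter, stood at 57.0% of control and Msl3, of a histone acetyltransferase complex, at 61.4%. Among the 9 genes the closest to their own median was Cyp51 (0.11) and the farthest Msmo1 (0.39).

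Markers of liver cell types were measured on the same arrays. For the 12 hepatocyte markers the median log2 difference was 0.01, 0 passed the threshold, and each of the 12 was well above background on 8 of 8 arrays. Summed levels in this paragraph add the unlogged values of the markers, so bright markers weigh most, and are percentages of the arithmetic control mean. The summed level of the hepatocyte markers was 94.5% to 107% on the control arrays and 80.1% to 108% on the shRaly arrays. The 8 endothelial markers had a median of -0.25, 0 past the threshold, and their summed level was 94.4% to 105% in the controls and 80.3% to 90.5% in the shRaly group, without overlap, with all 8 well above background on all arrays. Lymphocyte markers (8 genes, 7 of them above background on all arrays) had a median of -0.25 and summed levels of 88.1% to 124% against 53.9% to 93.4%. The part of these cells in the lower levels of the 9 sterol genes was not tested. Medians of the Kupffer cell (9 of 10 measured), stellate (7), cholangiocyte (5) and neutrophil (4) markers were 0.08, -0.25, -0.12 and 0.40, with 0 past the threshold in each.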

How the data were processed

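Liver RNA was measured on 8 single-colour arrays, 4 control and 4 shRaly, grouped by the sample titles. The deposited intensity values were made with Agilent's Feature Extraction software (11.5.1.1 per the file headers, 11.5.1.11 per the submitters' processing notes): a processed signal, background-subtracted, detrended and not scaled between arrays. The deposited table of the whole series equalled it for 62976 of 62976 spots on every array. Here its log2 was taken, each array's 75th percentile subtracted (7.86 to 8.19), between 137 and 163 flagged spots an array removed (0 were saturated), and spots of a probe averaged. Genes were named by accession through RefSeq tables of GRCm38.p6 (27656 probes). Failing that, the current symbol (3401 probes), an older symbol (321) or the name in the scanner files (1775) was used. Probe coordinates are on mm9, per the file headers, and promoters on GRCm38.p6. A probe was kept if well above background on at least 4 arrays with at least 3 values a group (19861 probes, 14874 genes), and the brightest represented its gene. Groups were compared with limma 3.58.1 in R 4.3.3, with Benjamini-Hochberg adjustment over all genes and a threshold of 0.05; the code was tested on simulated data. Arrays give no counts, and their number limits the precision. All 9 genes, up to 4 genes of each list by smallest p (all redox partners; some genes of the lists are counted but not reported singly here), Raly and the 5 most similar genes were named by rule. The members and lists were chosen with earlier results of these data known. The pair tests of the 9 genes are exact permutation tests, added after the values were seen, as was the choice of printed sequences.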

Additional observations from a re-analysis of the deposited data

Results flagged for a closer look

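Lss on control 1 stood at 147% of the control mean, against 85.3% to 92.9% on the other control arrays. Its gap to the nearest control was 84.4% of the range of the group, above Dixon's limit for 4 samples. Of 20 groups of 4 examined (9 genes and Raly in each of the groups), this was the 1 found, and chance alone gives about 1 in 20. Without control 1 the log2 fold change of Lss was -0.84 (limma adjusted p = 0.0865), against -1.03 (0.0543) with all arrays.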

How the results depend on the processing

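The 9 genes had negative log2 fold changes in all 153 combinations of gene and alternative, 8 that leave out an array and 9 others, and the median of the 9 ran from -0.85 to -0.67. Calls varied more. The number of the 9 past the threshold was 5, and 3 with median scaling and 2 with no filter on dim probes. It was between 1 and 6 with single arrays left out, and 7 with normexp and with trend and robust settings. With median scaling Cyp51, Hsd17b7 and Erg28 did not pass (limma adjusted p = 0.0902, 0.0731 and 0.0819), while Lss passed (0.0417). With no filter on dim probes Cyp51, Hsd17b7 and Erg28 did not pass either (0.134, 0.0993 and 0.139). The numbers of all genes past the threshold were 182, then 42 with no filter on dim probes and between 17 and 282 with single arrays left out. The fit with no filter adjusts over more genes and the fits without an array have fewer samples. Without shRaly 2 the numbers were higher than with all arrays, 282 of all genes and 6 of the 9. Why the numbers differ was not tested. Replicate numbers are shared by the groups, and the labels do not say whether they pair the samples. Same-numbered arrays had correlations of their deviations from the group means of 0.085, -0.021, -0.075 and 0.14. Those of differently numbered arrays ran from -0.28 to 0.23. So few values cannot decide whether the samples are paired. With a replicate block 1 of the 9 genes (Sqle) and 46 of all genes passed. Idi1, Fdps, Mvk, Dhcr7 and Srebf2 did not pass in that fit (limma adjusted p from 0.0561 to 0.115). Cyb5b, at 0.01, changed sign with normexp (-0.041), with median scaling (-0.015) and without shRaly 3 (-0.029; from -0.029 to 0.036 with single arrays left out), and passed the threshold in none of the fits.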
